A study of Saccharomyces cerevisiae with 18 samples.

Results

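In wild type yeast, mRNA levels at 2 h after galactose were compared with those at 0.5 h. The comparison holds 6 of the 18 libraries of the series, 3 per time. Libraries were picked by strain and by the time in their names, and no measured value entered that rule. Earlier results of these data were known when the comparison was chosen. All cells were Saccharomyces cerevisiae BY4741, a laboratory haploid of mating type a in which, by its known genotype, LEU2, MET17 and URA3 are deleted and HIS3 is partly deleted. They were grown on rich glucose medium, moved to raffinose, and given galactose in mid-exponential growth, so that at both times the medium held raffinose and galactose. The other strain, ZCZ01, is BY4741 with PPZ1, the gene of a protein phosphatase, under the GAL1-10 promoter, and its 6 libraries at 0.5 and 2 h serve below as the comparison. No library from before galactose was used here, and time in galactose and time in culture cannot be told apart.

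Budding yeast converts galactose to glucose 6-phosphate by the Leloir pathway. The activator Gal4 switches its genes on, the repressor Gal80 holds Gal4 in check, and the galactose sensor Gal3 releases it. Growth rate in yeast is tied to ribosome production, which needs ribosomal proteins, the rRNA polymerases and a large group of assembly factors that process pre-rRNA in the nucleolus. Promoters of the assembly factors often carry 2 short elements, PAC and RRPE, bound by the repressors Dot6 and Tod6 and by Stb3. Stress genes move the opposite way in many conditions, and many carry the element STRE, to which the activators Msn2 and Msn4 bind, while chaperone genes often carry sites for the heat shock factor Hsf1.

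The counts come from QuantSeq libraries, in which reads start at the 3′ end of each transcript, so a level is not divided by gene length and levels are compared between times and not between genes. The 6 libraries held 1178878 to 1920193 counts. Levels are given as CPM (counts scaled to a common library total) scaled by TMM, a factor that aligns the bulk of genes between libraries. A gene rose or fell when edgeR's quasi-likelihood test gave an adjusted p (Benjamini-Hochberg, over all 5423 genes tested) under 0.05. The 3 experiments enter the model as blocks. The a-specific genes MFA1, MFA2, STE2, STE6, BAR1 and AGA2 had 40 to 1583 counts in each of the 6 libraries, against 0 to 6 for the alpha-specific MF(ALPHA)1, MF(ALPHA)2 and STE3 and 12 to 25 for SAG1, also alpha-specific. LEU2 and MET17 had 0 or 1 count per library and the partly deleted HIS3 had 29 to 103. URA3 had 17 to 27 in each of the 6, which goes against its deletion, and the source of these reads was not tested. The titles of 4 of the 6 libraries give another time than their library names. Libraries of experiments 2 and 3 with the same library-name time differed by a chi-square per degree of freedom of 1.53 to 1.54, against 22.4 to 27.4 between either and experiment 1, and 25.9 to 33.7 between the times of 1 experiment. Experiments 2 and 3 therefore differ by little more than counting error, and p values that count them as separate replicates can be too small, while a fit with their counts summed leaves 2 replicates per time.

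Of the 5423 genes, 514 (9.48%) rose and 375 (6.91%) fell between 0.5 and 2 h. A change of at least 2-fold was reached by 296 of the genes that rose (5.46% of all genes) and by 184 of those that fell (3.39%). Genes for making ribosomes and nucleotides led the rise, and genes of stress protection, reserve carbohydrates and growth on other carbon sources led the fall. The median change over all genes was 0.01 on the log2 scale. In 881 of the 889 genes that passed, the 3 experiments changed the same way, and the 3 levels at 2 h lay wholly above the 3 at 0.5 h in 461 of the genes that rose and wholly below in 353 of those that fell. Over all 5423 genes, 1493 moved up and 1331 moved down in all 3 experiments, and overlap of levels was not counted over all genes. The test favours genes whose experiments move alike, so these counts are not separate support for the calls. Once experiments 2 and 3 were summed, 171 genes rose and 80 fell, each of them among the 514 and 375. Without experiment 1, the counts were 1141 and 1173, without experiment 2 they were 158 and 82, and without experiment 3 they were 134 and 72. None of the genes that passed in either direction passed in the opposite direction under any of these 4 fits.

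**Figure D1:**
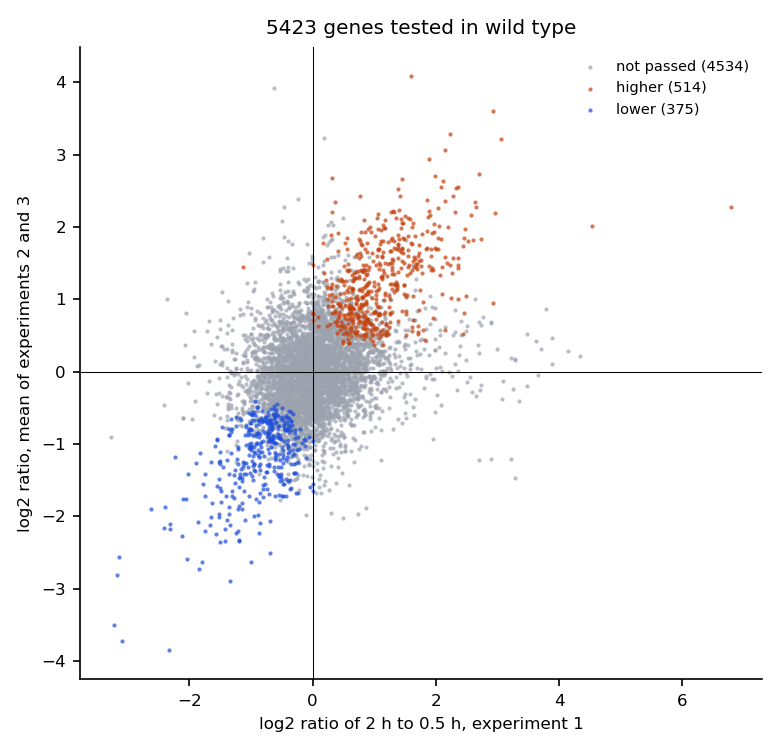
Log2 ratio of the 2 h to the 0.5 h level in experiment 1 (x axis) against the mean ratio of experiments 2 and 3 (y axis), 1 point for each of the 5423 genes tested, with the 514 that rose in orange and the 375 that fell in blue. Nearly all coloured points lie in the lower left or upper right of the plot, since 881 of 889 changed the same way in the 3 experiments, which the test itself favours.

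The promoters of the genes at both ends of the list differ in their short elements, and stretches that hold them are shown for genes described below. In each sequence, written 5′ to 3′ on the coding strand and taken from the 300 bases before the coding start in the R64 genome of RefSeq, capitals mark the motifs, and adjacent or overlapping motifs run together. The first 5 come from the 12 genes with the largest rise and hold PAC (GATGAG) and RRPE (AAAAATTT), each read on either strand. DBP2 lies at chrXIV:413418-413507 (plus strand), NOP7 at chrVII:695253-695342 (plus), LTV1 at chrXI:176621-176710 (plus), URA7 at chrII:145859-145948 (minus) and GUA1 at chrXIII:701535-701624 (plus).
DBP2: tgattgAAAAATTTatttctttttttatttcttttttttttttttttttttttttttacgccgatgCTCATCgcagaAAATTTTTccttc
NOP7: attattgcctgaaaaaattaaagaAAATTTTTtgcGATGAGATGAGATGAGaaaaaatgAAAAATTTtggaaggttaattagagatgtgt
LTV1: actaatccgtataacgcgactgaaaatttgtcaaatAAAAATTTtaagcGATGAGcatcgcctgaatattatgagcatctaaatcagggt
URA7: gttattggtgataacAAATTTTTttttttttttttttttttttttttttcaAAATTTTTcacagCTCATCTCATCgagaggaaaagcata
GUA1: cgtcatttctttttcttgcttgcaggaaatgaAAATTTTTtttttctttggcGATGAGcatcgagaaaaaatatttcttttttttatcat

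The other 3 come from genes that fell and hold STRE (CCCCT, either strand). MSC1 lies at chrXIII:16797-16886 (minus), HSP12 at chrVI:107002-107091 (plus) and HSP42 at chrIV:806356-806465 (plus), where the first run of capitals is a pair of overlapping matches to the letters searched for Hsf1, which are TTC, GAA and TTC with any 2 bases between neighbours.
MSC1: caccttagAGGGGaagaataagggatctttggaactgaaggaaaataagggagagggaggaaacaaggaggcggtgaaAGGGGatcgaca
HSP12: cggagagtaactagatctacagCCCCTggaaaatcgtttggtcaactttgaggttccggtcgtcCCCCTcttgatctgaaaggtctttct
HSP42: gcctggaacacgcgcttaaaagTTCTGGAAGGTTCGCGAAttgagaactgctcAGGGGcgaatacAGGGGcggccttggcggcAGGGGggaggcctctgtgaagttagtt

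Over all 5287 promoters searched, 19.3% held PAC, 15.9% held RRPE, 6.1% held both and 22.2% held STRE. Of the 502 promoters of genes that rose, 56.2% held PAC, 48.8% RRPE and 35.1% both, and 11.8% held STRE. The 370 promoters of genes that fell had the reverse make-up, with PAC in 9.7%, RRPE in 6.8%, both in 0.3% and STRE in 51.4%. PAC and RRPE were together upstream of 50 of 68 assembly factor genes of the large subunit (73.5%) and 45 of 59 of the small subunit (76.3%), but of 1 of 81 genes for proteins of the large subunit itself (1.2%) and of none of the 57 of the small subunit. Among the 12 largest rises, PAC was found in 10, the exceptions being ADE17 and FUI1. STRE was found in 5 of 11 of the 12 largest falls that could be searched, namely DSF1, AIM17, SOL4, MSC1 and HSP42. It was also found in 4 of the 12 largest rises, HPT1, LTV1, NOP14 and GUA1, so at these extremes the STRE shares lie close. The letters for Hsf1 were found in 37.9% of the 29 promoters of heat shock genes, against 0.9% of all. These shares describe the letters in the window and do not show that a factor was bound.

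**Figure D2:**
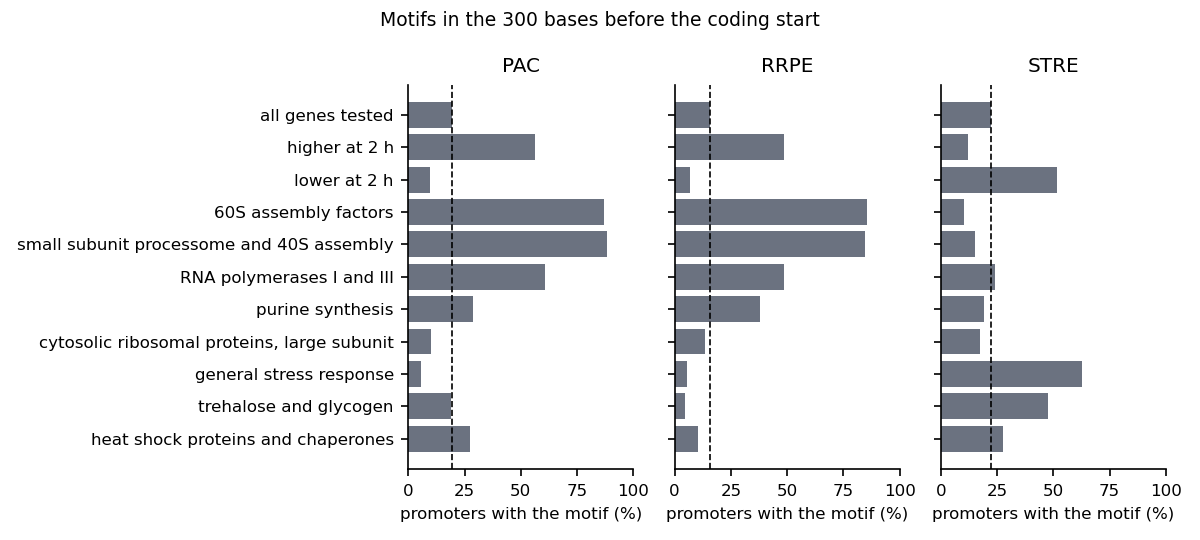
Share of promoters that hold PAC, RRPE or STRE within the 300 bases before the coding start, in percent (bars), for all genes tested, the genes that rose or fell and 8 gene lists, with the share over all genes as a dashed line. PAC reaches 86.8% and 88.1% in the lists of assembly factors and STRE reaches 62.9% in the general stress list.

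None of the 8 genes in the list for galactose use rose between 0.5 and 2 h, against 9.48% of all genes. Of the 8, 2 fell (25.0%, against 6.91% of all genes). GAL1, the galactokinase gene, had 8056, 11400 and 10740 CPM at 0.5 h in experiments 1, 2 and 3, and 7606, 7405 and 7037 at 2 h. Its log2 change of -0.46 ± 0.19 (standard error) did not pass (adjusted p = 0.131), though every level at 2 h lay below every level at 0.5 h. GAL10, for the epimerase, had 5450, 8274 and 8129 CPM at 0.5 h and 5851, 7441 and 7108 at 2 h. GAL7, for the uridylyltransferase, had 4749, 1969 and 2118 CPM at 0.5 h and 4691, 1630 and 1828 at 2 h. For both the groups overlap and the changes of -0.09 ± 0.13 and -0.17 ± 0.13 are small beside the gap between experiments. GAL2, for the permease, had 6659, 10570 and 9834 CPM at 0.5 h and 8050, 7367 and 7091 at 2 h, up in experiment 1 and down in experiments 2 and 3 (log2 change -0.24 ± 0.16, adjusted p = 0.355). The regulator genes GAL80 and GAL4 changed by 0.06 ± 0.24 and -0.06 ± 0.29, neither of them past the test, and GAL4 stood at 15.5 to 19.9 CPM throughout.

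PGM2 and GAL3 were the members of the pathway that fell. PGM2, for the major phosphoglucomutase that hands galactose carbon to glycolysis, had 705, 958 and 866 CPM at 0.5 h and 244, 252 and 213 at 2 h, a log2 change of -1.81 ± 0.20 (adjusted p = 3.1e-04). GAL3 had 218, 234 and 215 CPM at 0.5 h and 107, 147 and 154 at 2 h, a change of -0.73 ± 0.17 (adjusted p = 0.0163). In both genes the times do not overlap. In the fit with experiments 2 and 3 summed GAL3 no longer passed (adjusted p = 0.175), nor did it without experiment 2 (0.208) or without experiment 3 (0.148), while PGM2 passed in each. Without experiment 1, GAL1, GAL10, GAL7 and GAL2 also passed as lower, with changes of -0.63, -0.19, -0.26 and -0.51, and GAL80 as higher, with 0.34. Of 5 other Gal4 target genes, FUR4, the uracil permease gene next to GAL1, rose by 0.89 ± 0.24 (adjusted p = 0.0325), from 84.4, 56.2 and 51.6 CPM to 110, 126 and 121. FUR4 did not pass with total counts as the only scaling (adjusted p = 0.0616), with experiments 2 and 3 summed (0.275), or without experiment 2 (0.272) or 3 (0.378).

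The largest and most even rise was in the assembly factors. In the list for the large (60S) subunit 65 of 68 genes rose and none fell, with a median log2 change of 1.60, and in the list for the small subunit processome and 40S assembly 50 of 59 rose and none fell, with a median of 1.43. The background was 9.48% of all genes and a median of 0.01. All 127 members tested of both lists had a change above 0. The medians in experiments 1, 2 and 3 were 1.39, 1.69 and 1.68 for the large subunit and 1.33, 1.58 and 1.55 for the small subunit. With experiments 2 and 3 summed, 50 and 30 rose, without experiment 2 it was 48 and 28, and without experiment 3 it was 45 and 27.

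DBP2, for an RNA helicase of the DEAD-box family, rose most among them. It had 71.5, 39.8 and 39.4 CPM at 0.5 h and 602, 379 and 367 at 2 h, a log2 change of 3.21 ± 0.29 (adjusted p = 1.3e-04). NOP7, a nucleolar factor needed for 60S assembly, went from 57.5, 95.1 and 106 CPM to 454, 483 and 444, a change of 2.44 ± 0.23 (adjusted p = 1.8e-04). SDA1, needed for export of pre-60S particles, went from 31.2, 39.8 and 42.0 CPM to 197, 214 and 208, and RPF1 from 30.6, 33.7 and 32.3 to 116, 145 and 169. The 2 h levels of these 4 genes all lie above their 0.5 h levels, by more than the gap between experiments. For the small subunit, LTV1, for a 40S assembly and export factor, had 22.04, 27.7 and 16.1 CPM at 0.5 h and 98.4, 136 and 134 at 2 h, a change of 2.49 ± 0.22 (adjusted p = 1.3e-04). NOP14 went from 24.7, 53.6 and 42.0 CPM to 158, 240 and 223, and KRR1 from 43.0, 25.1 and 38.7 to 184, 188 and 184. Both encode parts of the processome that cuts the pre-rRNA. Genes at lower levels moved as far. DHR2, for a helicase, had 3.23, 3.46 and 3.23 CPM at 0.5 h and 16.7, 36.3 and 29.6 at 2 h (2.96 ± 0.37, adjusted p = 5.4e-04), and FAF1 had 8.60, 6.92 and 7.75 and then 44.5, 51.0 and 35.4 (2.46 ± 0.28, adjusted p = 3.8e-04).

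**Figure D3:**
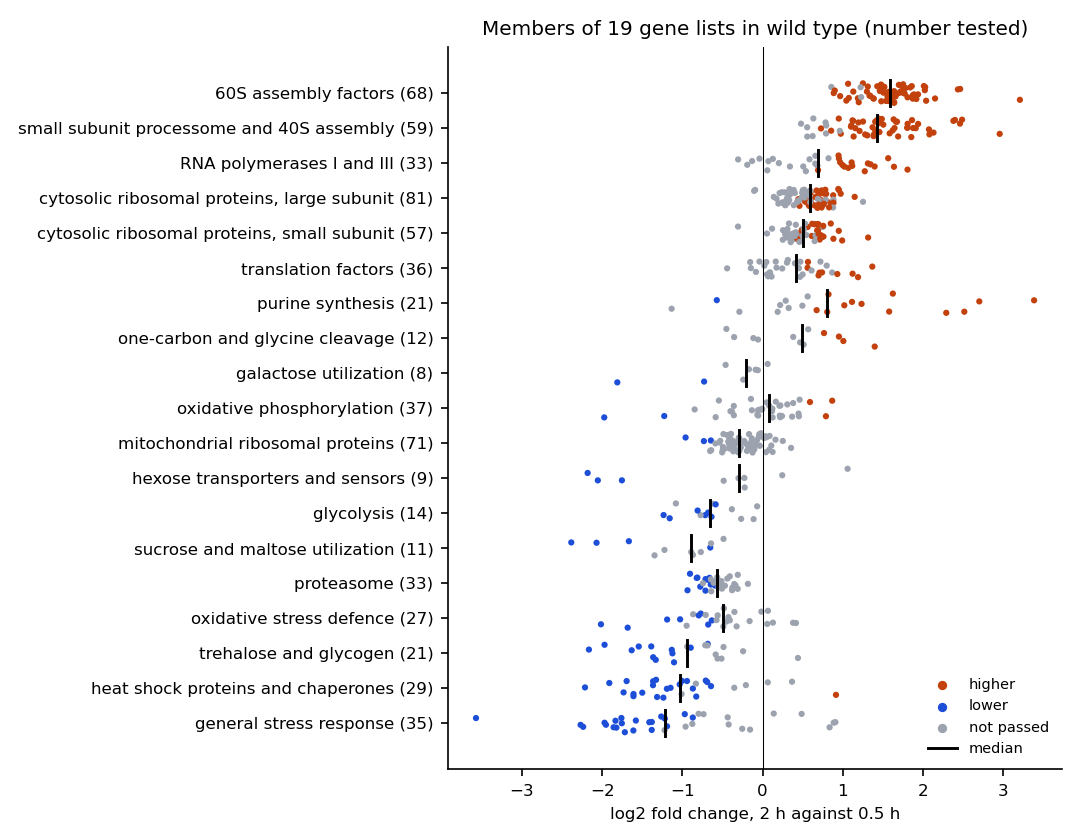
Log2 fold change of every tested member (points) of 19 gene lists in wild type, 2 h against 0.5 h, orange for genes that rose, blue for genes that fell and grey for the rest, with the list median as a black bar and the number tested in brackets. The assembly factor lists lie wholly to the right of 0 (medians 1.60 and 1.43), and the general stress list has its median at -1.22.

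Of the RNA polymerase I and III genes, 16 of 33 rose (48.5%, against 9.48% of all genes) and none fell (median 0.69). RPA190, RPA43 and RPA135, for subunits of polymerase I, which transcribes the large rRNA precursor, rose most in the list. RPA190 went from 53.8, 63.1 and 60.03 CPM to 214, 216 and 191 (1.81 ± 0.20, adjusted p = 3.1e-04), and RPA135 from 66.7, 56.2 and 61.3 to 228, 169 and 157 (1.57 ± 0.20, adjusted p = 6.6e-04). RPA43, whose product contacts the initiation factor Rrn3, rose by 1.64 ± 0.19. It lies beside RPA190 in the opposite orientation, and both share the upstream stretch between them. Once experiments 2 and 3 were summed 4 of the 33 genes rose, without experiment 2 it was 5 and without experiment 3 it was 3.

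Ribosomal protein genes rose by less than the assembly factors. Of 81 genes for the large subunit 37 rose (45.7%, median 0.59) and none fell. Of 57 for the small subunit 25 rose (43.9%, median 0.51) and none fell. The share that rose over all genes was 9.48%. A change above 0 was found in 135 of the 138, and only RPL9A and RPS20 among the genes that passed reached 2-fold. RPL9A had 787, 446 and 476 CPM at 0.5 h and 1640, 1054 and 1077 at 2 h (1.15 ± 0.24, adjusted p = 0.00871). RPL31B had 547, 534 and 550 CPM and then 1152, 1012 and 996 (0.95 ± 0.14, adjusted p = 0.00161). RPL25 went from 2411, 1054 and 1080 CPM to 4206, 2198 and 2159, and RPL27A from 738, 433 and 382 to 1074, 1005 and 938. On the small subunit, RPS27B had 1496, 612 and 644 CPM at 0.5 h and 2598, 1307 and 1267 at 2 h (0.95 ± 0.14, adjusted p = 0.00163), with the level in experiment 1 above both others at each time. RPS20 was low and uneven, at 92.5, 18.1 and 30.98 CPM and then 205, 55.7 and 74.2, so its groups overlap although each experiment rose (1.32 ± 0.22, adjusted p = 0.00282). RPS7B rose by 0.99 ± 0.26 and RPS29A by 0.88 ± 0.22. These calls rest on counting experiments 2 and 3 apart. With them summed, none of the 81 and 1 of the 57 passed in edgeR (RPS20, with 25 and 19 higher at an unadjusted p under 0.05), and without experiment 2 or without experiment 3 none of the 138 passed. Under the summed fit the adjusted p was 0.106 for RPL9A, 0.0842 for RPL31B, 0.13 for RPL25, 0.261 for RPL27A, 0.0997 for RPS27B, 0.183 for RPS7B and 0.222 for RPS29A. Most ribosomal proteins have a pair of gene copies, and reads from near-identical copies can be split between them. In RPS7B 8.5% and in RPS29A 1.2% of the 31-base words of the 3′ end occur elsewhere in the genome, and in the other 6 none.

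Of the 36 translation factor genes, 9 rose (25.0%, against 9.48% of all genes) and none fell (median 0.42). YEF3, for elongation factor 3, rose from 2453, 2676 and 2670 CPM to 6884, 5582 and 5653 (1.19 ± 0.21, adjusted p = 0.00386). TIF4631, for the initiation scaffold eIF4G, went from 33.9, 130 and 141 CPM to 177, 262 and 285 (1.37 ± 0.31, adjusted p = 0.0144), with the 0.5 h level of experiment 1 far below the others. In the fit with experiments 2 and 3 summed 1 of the 36 genes rose, and TIF4631 had an adjusted p of 0.0601. Without experiment 3 none of the 36 passed, and YEF3 had an adjusted p of 0.0506.

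Genes of nucleotide supply rose with them. Of 21 genes of purine synthesis and salvage 12 rose (57.1%, against 9.48% of all genes) and 1 fell (4.76%, against 6.91%), with a median of 0.81. The single largest rise of all genes outside the lowest 0.25 of mean levels was in AAH1, for adenine deaminase, which salvages adenine as hypoxanthine. It had 26.9, 13.0 and 18.7 CPM at 0.5 h and 210, 200 and 194 at 2 h, a log2 change of 3.39 ± 0.25 (adjusted p = 1.3e-04). HPT1, for the phosphoribosyltransferase that takes hypoxanthine and guanine to nucleotides, went from 48.4, 35.4 and 21.9 CPM to 181, 234 and 206 (2.52 ± 0.33, adjusted p = 7.1e-04). GUA1, for GMP synthase, had 108, 44.9 and 38.7 CPM and then 478, 213 and 220 (2.29 ± 0.17, adjusted p = 1.3e-04), at each time highest in experiment 1. ADE17 and ADE16 encode isozymes of the last steps of de novo IMP synthesis and moved in opposite directions. ADE17 had 18.3, 11.2 and 25.2 CPM at 0.5 h and 122, 101 and 134 at 2 h (2.70 ± 0.23, adjusted p = 1.3e-04). ADE16, named because it was the only member that fell, had 434, 401 and 366 CPM and then 271, 257 and 280 (-0.57 ± 0.15, adjusted p = 0.0307, and 0.319 with experiments 2 and 3 summed). At 4 h ADE17 stood at 1173 ± 190 CPM (SD, n = 3), above its level at 2 h in every experiment. With experiments 2 and 3 summed 8 of the 21 genes rose, without experiment 2 it was 7 and without experiment 3 it was 6.

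On the pyrimidine side, URA7, for CTP synthase, had 46.8, 20.7 and 35.5 CPM at 0.5 h and 243, 165 and 160 at 2 h (2.50 ± 0.29, adjusted p = 3.7e-04). FUI1, for the uridine permease, went from 52.1, 57.0 and 32.3 CPM to 208, 277 and 292 (2.46 ± 0.23, adjusted p = 1.6e-04). Of 12 genes of one-carbon metabolism, which feeds purine synthesis, 4 rose (33.3%, against 9.48% of all genes) and none fell (median 0.49). MIS1, for the mitochondrial C1-tetrahydrofolate synthase, had 80.6, 70.9 and 67.8 CPM and then 189, 211 and 181 (1.399 ± 0.19, adjusted p = 7.9e-04). SHM2, for the cytosolic serine hydroxymethyltransferase, had 161, 140 and 137 CPM and then 276, 316 and 296 (1.01 ± 0.18, adjusted p = 0.00422). SHM2 lost its call with experiments 2 and 3 summed (adjusted p = 0.128), without experiment 2 (0.132) and without experiment 3 (0.149), and 1 of the 12 genes passed in each of these fits.

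**Figure D4:**
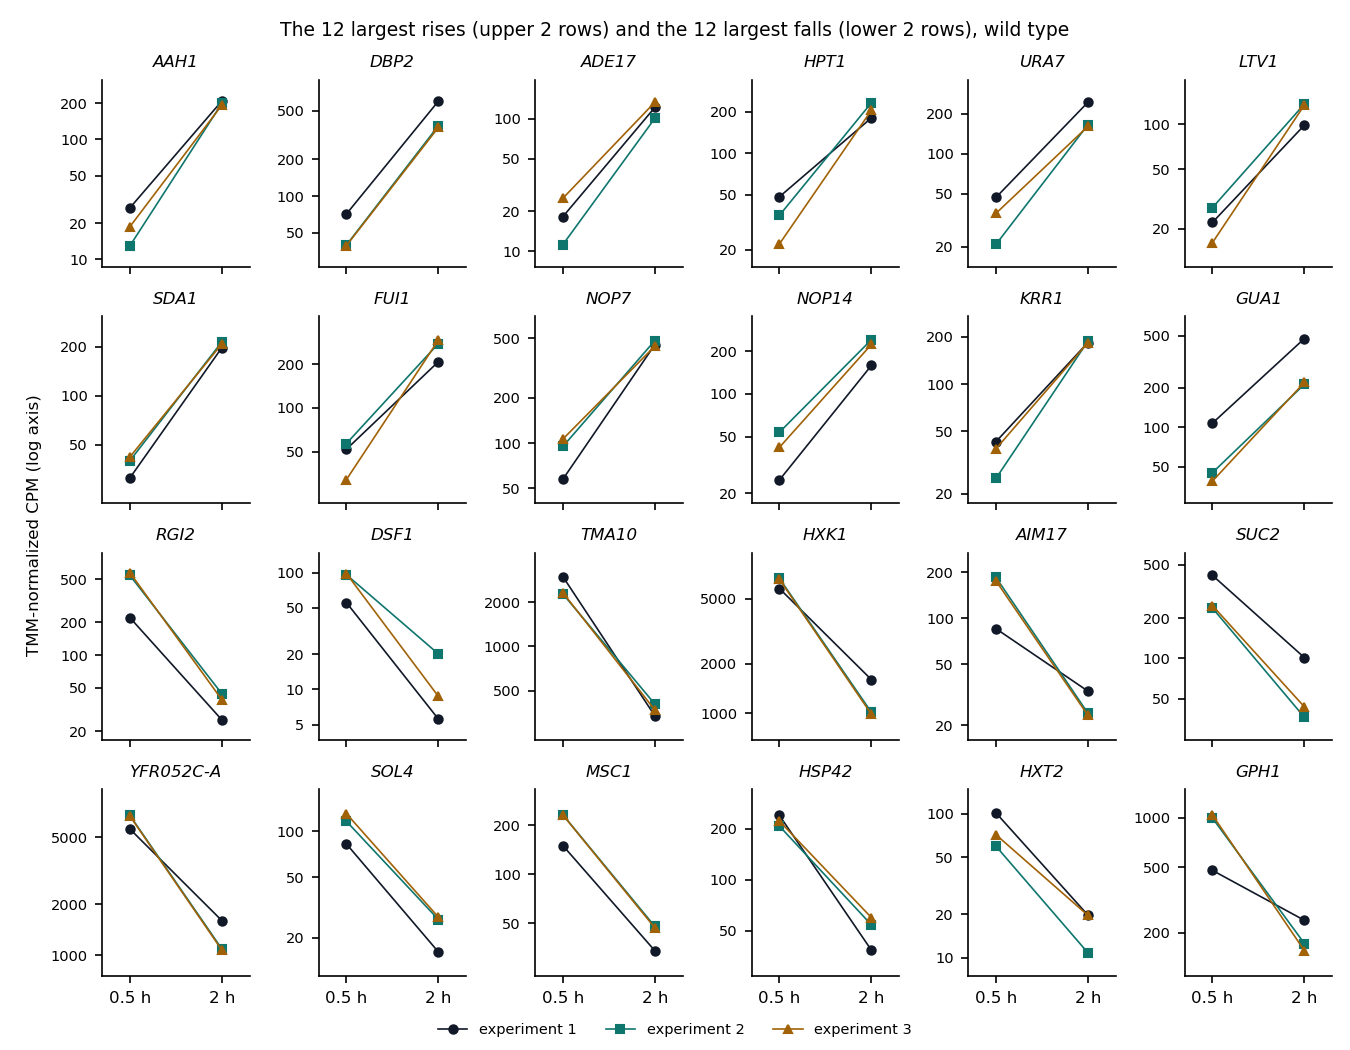
Levels in TMM-normalized CPM (log axis, own scale in each panel) at 0.5 and 2 h in experiments 1, 2 and 3 for the 12 largest rises (upper rows) and the 12 largest falls (lower rows) among genes that passed, moved the same way in all 3 experiments and lay outside the lowest 0.25 of mean levels. Lines join the times of 1 experiment. In each panel the levels of the times do not overlap, as for AAH1 with 13.0 to 26.9 CPM and then 194 to 210.

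Of 21 genes of fatty acid and phospholipid synthesis 5 rose (23.8%, against 9.48% of all genes) and 1 fell. The 5 became 1 with experiments 2 and 3 summed and without either of them. OLE1, for the fatty acid desaturase, had 67.2, 92.5 and 68.4 CPM at 0.5 h and 448, 295 and 276 at 2 h (2.10 ± 0.34, adjusted p = 0.00236), and FAA4, for an acyl-CoA synthetase, rose by 1.12 ± 0.22 (adjusted p = 0.00631, and 0.113 with experiments 2 and 3 summed). In nitrogen metabolism the NADPH-linked GDH1, which makes glutamate, rose from 591, 912 and 915 CPM to 1412, 1832 and 1852 (1.09 ± 0.16, adjusted p = 0.0012). GDH2, whose enzyme degrades glutamate, fell from 280, 431 and 405 CPM to 129, 135 and 130 (-1.50 ± 0.22, adjusted p = 0.00153). GLN1, for glutamine synthetase, rose by 1.03 ± 0.21, but its adjusted p was 0.154 with experiments 2 and 3 summed. Of 36 genes of other amino acid pathways 5 rose (13.9%) and 2 fell (5.56%), and HIS4 led with 1.24 ± 0.18. Of these 36, 1 rose and none fell with experiments 2 and 3 summed or without experiment 2, and none passed without experiment 3. PHO3, for an acid phosphatase, rose by 1.55 ± 0.25 and IZH1, a membrane protein gene tied to zinc, by 1.41 ± 0.22, each as the only member of its list that rose. These were 1 of 22 phosphate genes (4.55%) and 1 of 14 zinc and copper genes (7.14%), both shares below the 9.48% of all genes. Without experiment 3 the adjusted p of GDH1 was 0.0575 and that of HIS4 and PHO3 was 0.0747.

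The general stress list had the largest fall. Of its 35 genes 21 fell and none rose, with a median log2 change of -1.22, against 6.91% of all genes. RGI2, a gene tied to respiratory growth, had the largest fall of all, from 221, 540 and 572 CPM at 0.5 h to 25.4, 44.1 and 38.9 at 2 h (-3.57 ± 0.33, adjusted p = 1.6e-04). MSC1 went from 150, 232 and 231 CPM to 34.0, 47.9 and 47.0 (-2.24 ± 0.17, adjusted p = 1.3e-04), and SOL4, for a 6-phosphogluconolactonase, from 82.8, 117 and 131 to 16.1, 26.3 and 27.3 (-2.27 ± 0.23, adjusted p = 2.1e-04). HSP12, for a small membrane-associated stress protein, had 610, 1675 and 1575 CPM and then 263, 366 and 340 (-1.97 ± 0.39, adjusted p = 0.00713). Experiment 1 was the lowest at both times, and with experiments 2 and 3 summed HSP12 had an adjusted p of 0.0552. Outside the lists, TMA10, for a ribosome-associated protein, fell from 2976, 2274 and 2317 CPM to 338, 406 and 370 (-2.78 ± 0.22, adjusted p = 1.3e-04). AIM17 fell by 2.41 ± 0.31 on the log2 scale. Once experiments 2 and 3 were summed 12 of the 35 list genes fell, without experiment 2 it was 14 and without experiment 3 it was 11.

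Of 29 heat shock and chaperone genes 22 fell (75.9%, against 6.91% of all genes) and 1 rose (3.45%, against 9.48%), with a median of -1.03. HSP42, for a small heat shock protein, had 240, 207 and 222 CPM at 0.5 h and 38.4, 54.1 and 59.7 at 2 h (-2.21 ± 0.38, adjusted p = 0.00351). SSA4, for the stress-induced Hsp70, had 182, 289 and 324 CPM and then 57.5, 74.2 and 76.6 (-1.91 ± 0.19, adjusted p = 2.1e-04). HSP82, for the inducible Hsp90, had 1505, 1944 and 1910 CPM and then 537, 568 and 540 (-1.69 ± 0.14, adjusted p = 1.3e-04). BTN2, for a factor that sorts misfolded proteins, went from 82.2, 102 and 109 CPM to 24.1, 27.8 and 36.0. The exception was SSB1, chosen after its values were seen, whose product binds nascent chains on the ribosome. It rose from 1104, 875 and 875 CPM to 2019, 1715 and 1643 (0.92 ± 0.16, adjusted p = 0.00324, and 0.118 with experiments 2 and 3 summed). SSB1 has a near-identical partner gene, and 23.3% of the 31-base words of its 3′ end occur elsewhere. In the fit with experiments 2 and 3 summed, or without either of them, 10 of the 29 genes fell.

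Reserve carbohydrate genes fell in 12 of 21 cases (57.1%, against 6.91% of all genes) and none rose (median -0.94). GPH1, for glycogen phosphorylase, had 478, 994 and 1037 CPM at 0.5 h and 238, 172 and 155 at 2 h (-2.16 ± 0.33, adjusted p = 0.00163), a smaller drop in experiment 1. GDB1, for the debranching enzyme, had 247, 200 and 227 CPM and then 77.3, 45.6 and 51.6 (-1.97 ± 0.19, adjusted p = 1.8e-04). TSL1, for a subunit of the trehalose synthase complex, had 178, 235 and 245 CPM and then 77.3, 72.7 and 59.2 (-1.63 ± 0.21). Genes for breakdown and for synthesis thus both fell. With experiments 2 and 3 summed, or without either of them, 7 of the 21 fell. Of 27 genes of oxidative stress defence 8 fell (29.6%) and none rose (median -0.49). AHP1, for a thiol peroxidase, led with a fall from 2232, 2388 and 2400 CPM to 613, 556 and 575 (-2.01 ± 0.17, adjusted p = 1.3e-04). Of 33 proteasome genes 12 fell (36.4%), all by less than 2-fold, and none rose (median -0.57). The gene of their activator RPN4 fell by 0.94 ± 0.17 on the log2 scale (adjusted p = 0.00457) and the catalytic subunit gene PRE2 by 0.90 ± 0.17 (adjusted p = 0.00469). Once experiments 2 and 3 were summed 1 gene of oxidative defence and none of the proteasome passed in edgeR (12 of the 33 at an unadjusted p under 0.05), with adjusted p values of 0.0907 for RPN4 and 0.12 for PRE2. Without experiment 2 and without experiment 3 the count was also 1 and none.

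Some of the genes for other sugars fell. HXK1, for the hexokinase that glucose represses, had 5779, 6661 and 6573 CPM at 0.5 h and 1605, 1014 and 987 at 2 h (-2.43 ± 0.19, adjusted p = 1.3e-04). The dubious reading frame YFR052C-A overlaps it on the same strand and fell by 2.35 ± 0.18, and reads of the pair cannot be told apart. GLK1, for glucokinase, had 1287, 660 and 721 CPM and then 455, 134 and 134 (-2.08 ± 0.20, adjusted p = 2.1e-04). Its probe overlaps that of YCL042W on the same strand. HXK1 and GLK1 belong to a list of 18 tested genes of glucose repression and Snf1. In that list 4 genes fell (22.2%, against 6.91% of all genes) and none rose (median -0.47). With experiments 2 and 3 summed, or without either of them, 2 of the 18 fell. SUC2, for invertase, which also cleaves raffinose, had 417, 238 and 248 CPM and then 101, 36.3 and 43.5 (-2.38 ± 0.21, adjusted p = 1.3e-04). Of 11 genes for sucrose and maltose use tested 4 fell (36.4%, against 6.91% of all genes) and none rose (median -0.89). The 4 became 2 in DESeq2, with experiments 2 and 3 summed and without either of them. MAL12, for maltase, fell by 2.07 ± 0.19, but 65.6% of the 31-base words of its 3′ end occur elsewhere, so its reads can belong to another maltase gene. DSF1, a mannitol dehydrogenase homolog that fell by 2.98 ± 0.36, has 46.7% of such words. Of 9 hexose transporter and sensor genes tested 3 fell (33.3%) and none rose (median -0.30). HXT2 had 102, 59.6 and 71.7 CPM and then 19.8, 10.8 and 19.7 (-2.18 ± 0.36, adjusted p = 0.00282). HXT7 had 2059, 1915 and 1985 CPM and then 667, 560 and 544 (-1.75 ± 0.15, adjusted p = 1.3e-04). HXT6 fell by 2.05 ± 0.21, but HXT6 and HXT7 are near-identical, with 44.8% of their words found elsewhere, and counts of the pair are uncertain.

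In central metabolism 7 of 14 glycolysis genes fell and none rose (median -0.66), as ENO1, for an enolase, went from 2181, 2636 and 2521 CPM to 773, 1258 and 1133 (-1.23 ± 0.15, adjusted p = 5.6e-04). PFK2, for a phosphofructokinase subunit, fell by 1.16 ± 0.27 and TDH2, for a glyceraldehyde-3-phosphate dehydrogenase, by 0.81 ± 0.14. In the fit with experiments 2 and 3 summed only ENO1 of the 14 passed, as also without experiment 2 or without experiment 3, and 19.6% of its words and 22.6% of those of TDH2 occur elsewhere. Of 15 genes of ethanol and acetate metabolism 6 fell and 1 rose, which became 1 and none with experiments 2 and 3 summed and without either of them. ALD4, for the mitochondrial aldehyde dehydrogenase, had 1434, 1740 and 1794 CPM and then 651, 479 and 470 (-1.66 ± 0.20, adjusted p = 4.1e-04). ALD3, a cytosolic one, fell by 1.72 ± 0.32 (adjusted p = 0.00579, and 0.0576 with experiments 2 and 3 summed). ALD5, a second mitochondrial enzyme and the only one of the 15 that rose, gained 0.98 ± 0.29 (adjusted p = 0.045, and 0.161 summed). The lactate dehydrogenase genes DLD1 and CYB2 fell by 2.05 ± 0.18 and 1.64 ± 0.25, and DLD1 went from 690, 565 and 586 CPM to 130, 145 and 170. In the same list of 19, 5 genes fell (26.3%, and 2 genes in each of those 3 fits) and 2 rose (10.5%), near the 9.48% of all genes. The 2 became 1 with experiments 2 and 3 summed and without experiment 2, and none without experiment 3. They rose from low levels, MAE1, for malic enzyme, by 2.32 ± 0.42 and SFC1, for the succinate-fumarate carrier, by 2.01 ± 0.53. SFC1 had 3.23, 6.05 and 3.23 CPM and then 4.33, 26.3 and 24.4, so that its groups overlap, and its adjusted p of 0.0284 became 0.175 with experiments 2 and 3 summed. MAE1 had an adjusted p of 0.0877 without experiment 3.

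Of 37 genes of oxidative phosphorylation 3 rose (8.11%) and 2 fell (5.41%, median 0.08), close to the 9.48% and 6.91% of all genes. Of 71 mitochondrial ribosomal protein genes 3 fell (4.23%) and none rose (median -0.29), and none of the 71 passed in edgeR with experiments 2 and 3 summed (4 lower at an unadjusted p under 0.05) or without either of them. The 3 oxidative phosphorylation genes that rose lost their call in those fits as well. The oxidative phosphorylation genes that fell, CYC7 and COX5B, encode the isoforms of cytochrome c and of a cytochrome oxidase subunit that are made at low oxygen. CYC7 had 96.8, 102 and 112 CPM and then 42.1, 23.2 and 18.6 (-1.97 ± 0.29, adjusted p = 0.00124), and COX5B had 255, 261 and 324 and then 108, 124 and 126 (-1.22 ± 0.16, adjusted p = 7.8e-04). ATP1 and QCR7, of the ATP synthase and of complex III, rose by 0.87 ± 0.26 and 0.79 ± 0.17, with an adjusted p of 0.141 and 0.178 once experiments 2 and 3 were summed. LSC1, of the citric acid cycle, fell by 0.96 ± 0.18 (0.15 once summed). Of 31 peroxisome and fatty acid oxidation genes 4 fell (12.9%, against 6.91% of all genes) and none rose. POX1, for the acyl-CoA oxidase, went from 16.1, 31.1 and 30.3 CPM to 2.47, 6.96 and 5.80 (-2.36 ± 0.34, adjusted p = 0.00123), and SPS19, for a dienoyl-CoA reductase, from 124, 112 and 98.8 to 28.4, 29.4 and 31.9 (-1.88 ± 0.25, adjusted p = 7.1e-04).

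Several groups held no gene that passed, against 9.48% and 6.91% of all genes. None of 11 histone, 22 G2 and M phase, 20 mating, 16 amino acid permease, 12 calcineurin and calcium or 8 cation transport genes passed edgeR's test, and none did in DESeq2. At an unadjusted p under 0.05 in edgeR the counts were 1, 2, 3, 1, 2 and 1. Without experiment 1 some members passed, among them 6 histone genes as lower and 2 as higher, and 6 mating genes as higher. Of the 34 G1 and S phase genes SMC3, for a cohesin subunit, was the only one that rose (0.60 ± 0.18, adjusted p = 0.049), and it lost its call in DESeq2 (adjusted p = 0.104) and with experiments 2 and 3 summed (0.322). Of the a-specific genes, STE6, for the a-factor exporter, rose by 0.90 ± 0.20 (adjusted p = 0.0124, and 0.115 with experiments 2 and 3 summed). ACT1, often used as a reference, had 4103, 4754 and 5058 CPM at 0.5 h and 3665, 2693 and 2762 at 2 h and did not pass (-0.66 ± 0.25, adjusted p = 0.102), but it passed as lower in the fit of the 6 libraries alone (adjusted p = 0.029) and without experiment 1. It had the lowest change of the 8 reference genes tested. None of the 8 passed in the main fit, and their median change was -0.155. Among the genes of Ppz phosphatases and their subunits, VHS3, for an inhibitory subunit, fell by 1.05 ± 0.20 (adjusted p = 0.00684) and PPZ2 by 0.88 ± 0.24 (adjusted p = 0.0325), and with experiments 2 and 3 summed these became 0.068 and 0.237. The probe of VHS3 overlaps others on the opposite strand.

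The same interval in ZCZ01 looked different. The change from 0.5 to 2 h was set against that in wild type as a difference of differences over 18 libraries and 5658 genes. In ZCZ01 it was above that in wild type for 600 genes (10.6%) and below it for 858 (15.2%). With total counts as the only scaling these became 815 and 605, since that scaling moves the median difference over all genes from -0.07 to 0.14, and with experiments 2 and 3 summed 236 and 248. For the assembly factors of both subunits together, the median change was 1.54 in wild type and 0.28 in ZCZ01, and 86 of 127 genes had a change in ZCZ01 below that in wild type and none above. For ribosomal proteins the medians were 0.54 and -0.41, with 95 of 138 below and 2 above. For the general stress list they were -1.24 and 1.68, with 26 of 35 above and none below, and for trehalose and glycogen -0.94 and -0.19, with 13 of 21 above and none below. For heat shock genes they were -1.04 and -0.29, with 12 of 29 above and 4 below. Under total counts the order of the strains was the same for each of these lists, with 68 of 127, 75 of 138, 26 of 35, 13 of 21 and 14 of 29 genes past the test on the same side. With experiments 2 and 3 summed 41 of 127, 18 of 138, 24 of 35, 6 of 21 and 10 of 29 passed.

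DBP2, at 3.21 in the wild type fit, changed by 0.06 in ZCZ01 on the log2 scale, and the difference of -3.15 passed (adjusted p = 3.4e-05). AAH1 changed by 0.41 in ZCZ01, with a difference of -2.97 (adjusted p = 7.7e-06). HSP12 went the opposite way, by 2.89 in ZCZ01, with a difference of 4.86 (adjusted p = 1.8e-05), and MSC1 by 1.85, with a difference of 4.10 (adjusted p = 7.6e-08). Other large falls were shared in direction or went further in ZCZ01. HXK1 changed by -4.22 there (difference -1.78, adjusted p = 8.0e-05) and SUC2 by -4.46 (difference -2.07, adjusted p = 0.00131). TMA10 changed by -3.15, RGI2 by -5.21 and HXT2 by -2.04, with differences of -0.36, -1.63 and 0.15 that did not pass (adjusted p = 0.394, 0.0719 and 0.851). GAL2, not called in wild type, changed by -2.19 in ZCZ01 (difference -1.95, adjusted p = 2.4e-05). Genes singled out for a large change in wild type lean toward a smaller one elsewhere, because the same wild type libraries enter both tests, so these differences are not separate support for the changes in wild type.

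**Figure D5:**
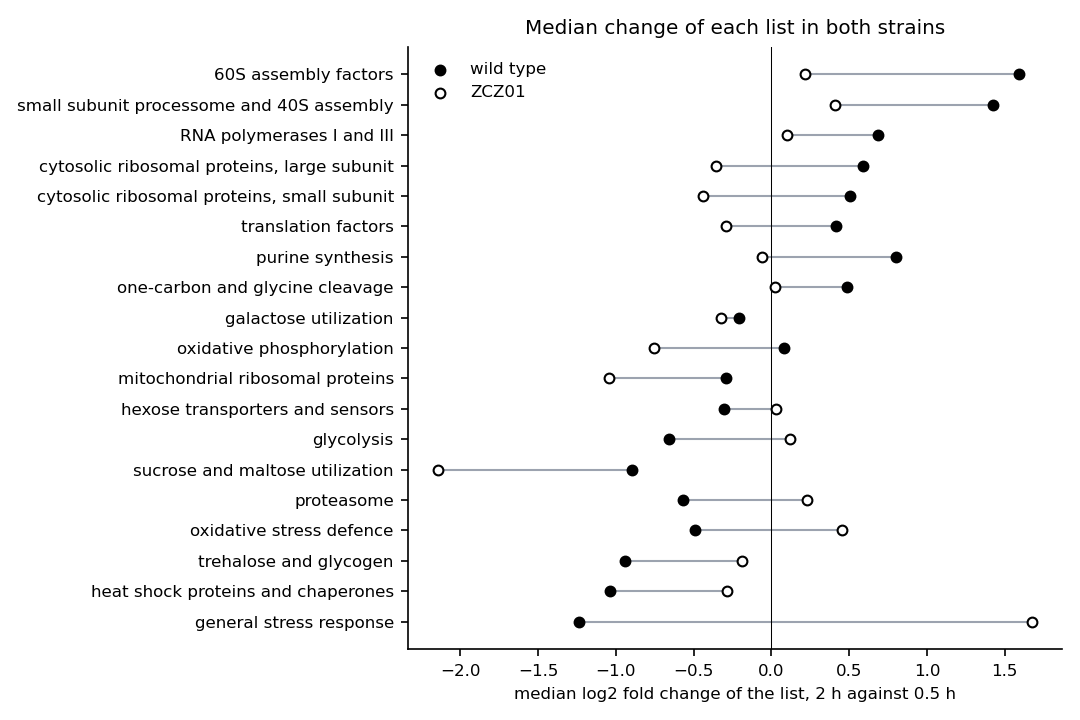
Median log2 fold change from 0.5 to 2 h of the members of 19 gene lists in wild type (filled) and ZCZ01 (open), from the fit of 18 libraries, joined by a line for each list. The assembly factors of the large subunit have medians of 1.59 and 0.21, and the general stress list has -1.24 and 1.68.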

How the data were processed

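RNA was measured in 18 QuantSeq 3′ libraries. The values are read counts per gene probe, which the authors made from Bowtie2 alignments and deposited as unscaled whole numbers, in 1 table per experiment. The sources used here give neither the genome build nor the strand setting. Of 6692 probes, 5988 matched an R64 gene, and 507 overlapped another probe on the same strand and 2310 on the other. The probes of HXK1, GLK1, GPH1, URA7 and CPA1 are among those that overlap another on the same strand. In experiment 1, 66 probes were at 0 in every wild type library although their counts in those of experiments 2 and 3 summed to at least 50.

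Times were taken from the library names, since 12 of 18 titles give another time. Wild type depth was 955972 to 1920193 counts. The labels do not say whether the 3 experiments were separate cultures, so p values measure the spread between these libraries. The 9 wild type libraries entered the main model and all 18 that of the strain difference. Genes were filtered by filterByExpr, scaled by TMM and fitted in edgeR 4.0.16 under R 4.3.3 with experiment as a block. The pairing comes from the replicate number in the library names, and deviations of same-numbered libraries correlated at 0.495 to 0.843, though those of experiments 2 and 3 also correlated with each other, at 0.478 to 0.682. Log2 levels used a prior count of 1. Alternatives were no replicate block, 6 or 18 libraries, DESeq2 1.42.0, RLE or total count scaling, other filters, experiments 2 and 3 summed, and each replicate left out. The model was tested on simulated data in which each library was drawn independently. That test therefore cannot show how the closeness of experiments 2 and 3 affects the p values.

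Named genes are the galactose list, the 12 largest changes in each direction among genes that passed, moved alike in 3 experiments and exceeded the lowest 0.25 by mean level, and at most 4 genes per list. SSB1, ADE16 and ALD5 were named after their values were seen. The comparison and the lists were chosen with earlier results of these data known. Motifs were sought in the 300 bases before the coding start of 5287 genes. Shared sequence was measured as 31-base words of the last 300 bases of a probe. Figures were drawn with matplotlib 3.10.9.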

Additional observations from a re-analysis of the deposited data

Results flagged for a closer look

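Of the 106 genes named here, 80 had a change from 0.5 to 2 h in ZCZ01 that differed from the change in wild type (edgeR's quasi-likelihood test, adjusted p under 0.05 over 5658 genes, 3 libraries per strain and time), 47 with a lower and 33 with a higher change in ZCZ01. Over all 5658 genes, 15.2% passed with a lower and 10.6% with a higher change in ZCZ01. Values below are the change in ZCZ01 minus that in wild type on the log2 scale. Most of the 80 genes were named for their change in wild type, and the same wild type libraries enter the difference, which leans it toward the opposite sign. Total count scaling moves the median difference over all genes from -0.07 to 0.14.

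Genes of ribosome assembly and RNA polymerase I had a lower change in ZCZ01 than in wild type. They differed downward, DBP2 by -3.15, SDA1 by -2.27, NOP7 by -2.28, RPF1 by -1.86, DHR2 by -1.65, LTV1 by -2.11, FAF1 by -1.50, NOP14 by -2.67, KRR1 by -1.54, RPA190 by -1.92, RPA43 by -1.49 and RPA135 by -1.45. Among genes of ribosomal proteins and translation factors the differences were also downward, RPL9A by -1.67, RPL31B by -1.67, RPL25 by -1.08, RPS27B by -1.03, RPS29A by -1.31, TIF4631 by -2.49 and YEF3 by -1.44. In nucleotide and one-carbon metabolism they were too, AAH1 by -2.97, ADE17 by -1.83, HPT1 by -2.07, GUA1 by -1.71, URA7 by -2.47, FUI1 by -2.13, MIS1 by -1.41 and SHM2 by -1.90. Further genes that rose in wild type differed downward too, OLE1 by -2.08, GDH1 by -1.67, HIS4 by -0.63, IZH1 by -0.76, SSB1 by -1.39, ALD5 by -1.16, ATP1 by -2.21, QCR7 by -1.54, FTR1 by -2.46, SIT1 by -2.93 and SMC3 by -1.61.

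These stress, chaperone and proteasome genes differed upward in ZCZ01, with SSB1 above as an exception among chaperones, SOL4 by 3.49, MSC1 by 4.10, HSP12 by 4.86, AIM17 by 1.43, HSP42 by 3.45, SSA4 by 4.32, BTN2 by 1.94, HSP82 by 1.31, AHP1 by 3.18, RPN4 by 1.69 and PRE2 by 0.79. In reserve carbohydrate, glycolysis and aldehyde dehydrogenase genes they were upward as well, GPH1 by 1.98, GDB1 by 1.43, TSL1 by 1.77, ENO1 by 2.40, TDH2 by 1.12, ALD4 by 0.97 and ALD3 by 5.25. Other genes that fell in wild type also differed upward, PGM2 by 1.90, GDH2 by 0.91, GLK1 by 1.27, CYB2 by 1.45, POX1 by 2.40, SPS19 by 1.99, CYC7 by 2.38, COX5B by 1.03, VHS3 by 1.45, MET6 by 2.29, CTS1 by 1.86, TIP1 by 1.3, SED1 by 2.11 and ATG33 by 1.44.

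Another set fell in wild type and by more in ZCZ01, so that they differed, HXK1 by -1.78, YFR052C-A by -1.86, SUC2 by -2.07, MAL12 by -2.87, HXT7 by -1.21, GAL3 by -0.97 and MHT1 by -1.74. GAL2 and GAL10, which did not pass in wild type, differed by -1.95 and -0.61. CPA1, for a subunit of carbamoyl phosphate synthase, rose in wild type and differed by 1.77, a larger rise in ZCZ01.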

How the results depend on the processing

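Directions held for each of the 106 named genes under every alternative that gave a value, with the exception of GAL80 and GAL4, neither of which passed with all 3 experiments. GAL80 turned from 0.06 to -0.083 with experiments 2 and 3 summed and ranged from -0.132 to 0.337 with 1 experiment left out, passing as higher without experiment 1 (adjusted p = 0.0158). GAL4 at -0.06 ranged from -0.19 to 0.076, the value without experiment 2. DHR2, FAF1, GAL4, MAE1, POX1 and SFC1 had no value under a mean of at least 50 counts, nor SFC1 in the 6 libraries alone. What moved was how many genes passed. Without the replicate block 315 genes rose and 216 fell, against 514 and 375 with it, and 20 named genes no longer passed. With experiments 2 and 3 summed 171 rose and 80 fell, all of these by at least 2-fold, and 236 and 248 genes had a strain difference above and below 0. There 40 named genes lost their call, the fit having 1 replicate less. With 1 replicate left out the genes that rose ranged from 134 to 1141, those that fell from 72 to 1173, those at least 2-fold higher from 134 to 418 and at least 2-fold lower from 72 to 315, and strain differences from 216 to 1017 above and 224 to 1322 below 0. The highest counts come without experiment 1, where the remaining libraries are close to repeats of each other. DESeq2 (492 and 391), RLE factors (511 and 380), total counts (478 and 426), no filter (499 and 387), a mean of at least 50 counts (485 and 386), the 6 libraries alone (600 and 488) and all 18 (591 and 481) stayed within 1.5 times of the 514 and 375. Depth limits genes such as DHR2 and SFC1, at 3.23 to 6.05 CPM at 0.5 h.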

Other observations

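Over all genes 9.48% rose and 6.91% fell. Of 28 genes of sulfate assimilation and methionine 3 fell (10.7%) and none rose (median -0.34). MET6, for methionine synthase, had 252, 154 and 127 CPM at 0.5 h in experiments 1, 2 and 3 and 136, 76.6 and 64.4 at 2 h, a log2 change of -0.96 ± 0.19 (adjusted p = 0.00679), and the groups overlap because experiment 1 was higher at both times. MHT1, for a homocysteine methyltransferase, had 141, 132 and 129 CPM and then 49.5, 46.4 and 61.5, and fell by 1.35 ± 0.27 on that scale. Of 28 genes of the arginine, lysine and leucine family 5 rose (17.9%) and 2 fell (7.14%). CPA1 went from 34.4, 27.7 and 20.01 CPM to 57.5, 65.7 and 59.7 (1.16 ± 0.22), while BAT2, the cytosolic branched-chain aminotransferase gene, went from 395, 540 and 528 to 199, 200.3 and 191 (-1.32 ± 0.27). Of 28 iron genes 3 rose (10.7%) and 2 fell (7.14%), with FTR1, the high-affinity iron permease gene, going from 162, 204 and 190 CPM to 343, 341 and 347 (0.90 ± 0.16), and SIT1, a siderophore transporter gene, changing by 0.75 ± 0.22.

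Of 29 cell wall genes 4 fell (13.8%) and 1 rose (3.45%). TIP1, for a mannoprotein, went from 841, 1147 and 1101 CPM to 460.2, 493 and 494 (-1.09 ± 0.20), and SED1 from 909, 361 and 336 to 465, 265 and 201 (-0.73 ± 0.17), where the groups overlap. CTS1, for the chitinase that parts daughter from mother cells, went from 895, 885 and 891 CPM to 678, 448 and 403 (-0.86 ± 0.21). Of 22 autophagy genes 4 fell (18.2%) and none rose, led by ATG33, for a mitophagy factor, from 100.5, 161 and 187 CPM to 69.3, 60.3 and 60.3 (-1.22 ± 0.25). Each of these 10 genes and SMC3 passed in the fit of 3 experiments (adjusted p = 0.00463 to 0.049) and none passed with experiments 2 and 3 summed (0.0552 to 0.322), where the direction was unchanged. In that fit none of the members of these 5 lists passed in edgeR, against 1 to 5 per list and direction at an unadjusted p under 0.05 in the directions with a call.

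Levels at 4 h in wild type were outside the comparison and are given without a test, although these libraries entered the main model and its estimate of the spread. For 3 genes that fell, the mean at 4 h lay between the means at 0.5 and 2 h, with PGM2 at 581 ± 174 CPM (SD, n = 3), HSP12 at 1006 ± 402 and HSP82 at 1005 ± 83.98. RGI2 lay lower still, at 15.9 ± 4.68 CPM. Of the 12 largest rises, ADE17 and FUI1 had a higher mean at 4 h than at 2 h. The other means of these 12 at 4 h lay between those at 0.5 and 2 h. Examples are AAH1 at 96.7 ± 34.9 CPM, DBP2 at 229 ± 196 and NOP7 at 235.5 ± 30.7. Among other genes that rose, GLN1 at 434 ± 73.3, HIS4 at 293 ± 36.2 and SHM2 at 1376 ± 257 lay above all their levels at 0.5 and 2 h, as did ADE17.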
